A study of Mus musculus with 32 samples.

Results

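The 4 kidneys taken from wild type mice 48 h after cisplatin are described here against the 4 kidneys of wild type mice injected with saline, which the labels call the 0 h group. They are 8 of the 32 arrays of a study of acute kidney injury by cisplatin in wild type and miR-155-/- mice. The kidneys were chosen by their labels alone, genotype and time, and every gene that could be measured was compared. All 8 animals were male C57BL/6 mice aged 12 to 16 weeks. The 48 h animals had received 1 injection of cisplatin at 20 mg/kg, and the saline animals no cisplatin. RNA came from the homogenised whole kidney of 1 animal per array and was hybridised to 1-colour Agilent mouse arrays. The saline kidneys stand for time 0, so that the time since injection differs between the groups together with the drug, and no saline kidney taken at 48 h was analysed here. Wild type kidneys taken 24 and 72 h after the same dose, and miR-155-/- kidneys taken at 48 h with their own saline group, each of 4 animals, are brought in only to place the 48 h values. In homogenised tissue, fewer cells of a type and less RNA per cell cannot be told apart.

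Cisplatin binds platinum to DNA and forms crosslinks that stop replication and transcription. The proximal tubule takes the drug up from the blood through organic cation carriers, and the straight part of that segment bears most of the damage. Injured tubule cells are known to switch on p53 target genes, to lose transport and mitochondrial functions, and to take on genes of a stressed epithelium such as Havcr1 (kidney injury molecule 1) and Lcn2 (neutrophil gelatinase-associated lipocalin). The days around 48 h are those in which tubular necrosis and loss of filtration develop in this mouse model.

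Values are given as scaled intensity, the processed signal of the gene's probe divided by the 75th percentile of its array and multiplied by 1000, in the order of replicates 1 to 4. They compare 1 gene between kidneys and not 1 gene with another, since probes differ in brightness. Differences are log2 of 48 h over saline with the standard error of the limma fit after ±, and a gene is called higher or lower at an adjusted p under 0.05 over all 23749 genes and transcripts tested, of which 16459 had a symbol. The words rose and fell are kept for called genes. Kidney identity was plain in both groups: Umod, uromodulin of the thick ascending limb, was at 87823 to 111450.0 at 48 h against 148420.0 to 167400.0 in saline kidneys, and Hnf4a, a transcription factor of proximal tubule, at 39630.0 to 64859 at 48 h against 62879 to 79578 in saline kidneys, all above background.

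Kidney 48 h after cisplatin differed from saline kidney across much of the transcriptome. At 48 h, 5655 of 23749 genes were called (23.8%), 2906 higher (12.2%) and 2749 lower (11.6%), and the median difference over all genes was 0.000478. That median and the balance of calls depend on how arrays are scaled and fitted: background correction by normexp gave 1658 higher and 1314 lower (median -0.11), and slide as a fixed block 3789 higher and 4411 lower (median -0.05). At least 2-fold, 1086 were higher (4.57%) and 885 lower (3.73%). The groups did not overlap for 34.7% of genes: every 48 h array lay above every saline array for 17.3% of genes, and below for 17.4%. The largest rises among named genes were those of Tac1, which encodes the neuropeptide precursor of substance P (6.58 ± 0.75, adjusted p = 1.6e-07), the late cornified envelope genes Lce1d (6.28) and Lce1g (5.88), Ifi27l2b (6.04 by its brightest probe, 0.95 by the other), Serpina7, the thyroxine-binding globulin (5.99), Zfp365 (5.86), Gm10375 (5.82), Ms4a10 (5.78), 4833428L15Rik (5.78) and Krt12, a keratin of corneal epithelium. Tac1 was at only 1.71, 1.65, 1.56 and 8.02 in the saline kidneys, so the size of its fold is uncertain. Krt12 was not well above background in any saline kidney, so only a bound is given: it was at least 15.1-fold higher at 48 h (adjusted p = 0.0001), and its call was lost with the normexp correction. Zfp365, a zinc finger gene with a role in genome stability, was at 1362, 1347, 739 and 933 in the 48 h kidneys, against 12.6, 24.4, 14.4 and 24.7 in the saline kidneys. Its groups were far apart and its adjusted p was 8.9e-17.

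The largest falls were of a different kind. Immp2l, a subunit of the mitochondrial inner membrane peptidase whose gene spans a very long locus, was at 6.76, 3.73, 2.52 and 3.57 in the 48 h kidneys, against 244, 255, 242 and 248 in the saline kidneys. It was not well above background in any 48 h kidney and was at least 51.8-fold lower there. The other 9 were genes of red blood cells, Hbb-bt (-5.52 ± 1.26, adjusted p = 0.00175), Hbb-bs (-4.92) and Hbb-b2 (-4.43), the major urinary protein genes Mup17 (-5.49), Mup18 (-5.32), Mup19 (-4.91), Mup3 (-4.71) and Mup20 (-4.37), and the serpin Serpina3k (-4.42). Major urinary proteins are pheromone carriers made mostly by liver, and the genes are near-identical copies, so their probes may not tell them apart. Mup17 was at 36.7, 4.42, 4.39 and 30.9 in the 48 h kidneys, against 6809.8, 669, 111 and 176 in the saline kidneys. Saline replicate 1 alone was far above the other saline kidneys for the Mup genes and Serpina3k, so these folds vary with that animal. Without it, the median of the 6 tested Mup genes was -3.54 in place of -4.81, and all 6 were still called. With the normexp correction the Mup3, Mup20, Serpina3k and Hbb-bs calls were lost. Hbb-bs was at only 8.65, 2.46, 2.75 and 2.45 in the 48 h kidneys.

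**Figure D1:**
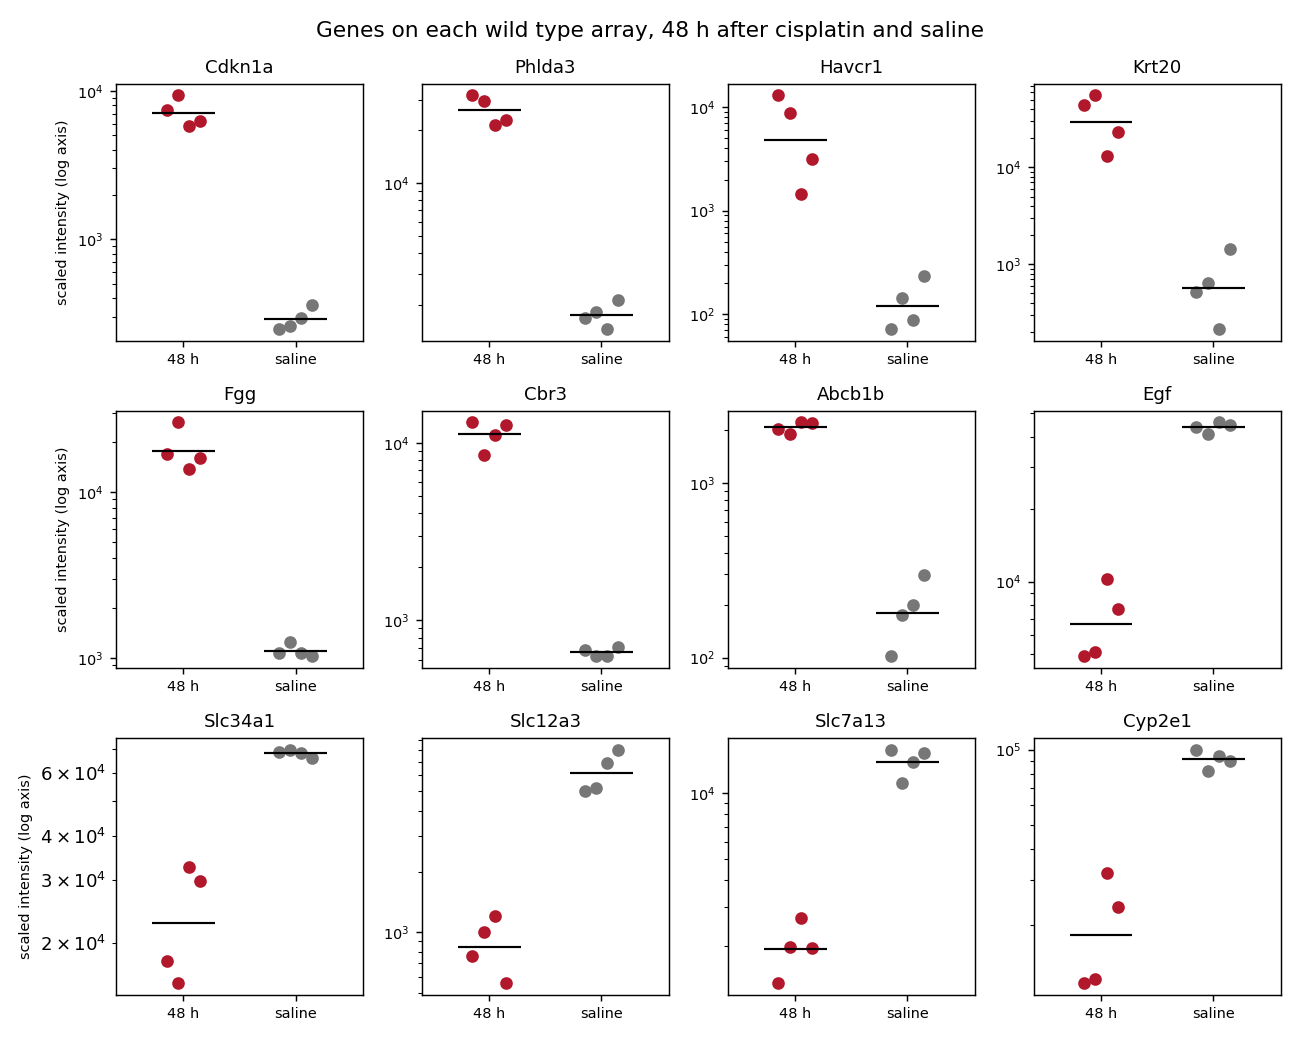
Scaled intensity (log axis) of 12 genes on each wild type array, 48 h after cisplatin at the left and saline at the right of each panel, with points in replicate order and a line at the geometric mean. In all 12 genes the 48 h and saline kidneys did not overlap, with Cdkn1a, Phlda3, Havcr1, Krt20, Fgg, Cbr3 and Abcb1b higher and Egf, Slc34a1, Slc12a3, Slc7a13 and Cyp2e1 lower at 48 h. The 12 were chosen with their values known, and the groups did not overlap for 34.7% of all genes.

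The genes that p53 switches on to arrest the cell cycle and to restrain p53 itself were mostly higher at 48 h. Of 19 measured, 15 rose and 0 fell, against 12.2% of all genes higher, and their median was 2.67. Cdkn1a, the cyclin-dependent kinase inhibitor p21, was at 7464, 9321, 5769.9 and 6226 in the 48 h kidneys, against 249, 262, 297 and 362 in the saline kidneys, a 24.4-fold difference (4.61 ± 0.29, adjusted p = 2.6e-12). The lowest 48 h kidney was far above the highest saline kidney, and another probe of the gene gave 3.60. Phlda3, a p53-induced repressor of Akt, was at 31797, 29426, 21431 and 22928 in the 48 h kidneys, against 1678, 1835, 1461 and 2140.1 in the saline kidneys (3.89 ± 0.16, adjusted p = 2e-16). Mdm2, the ubiquitin ligase that degrades p53, was at 22532 to 35070.0 at 48 h against 6685 to 7859.9 in saline kidneys (1.91 ± 0.14, adjusted p = 6.2e-11), and Ccng1, cyclin G1, at 14923 to 19392 at 48 h against 4069 to 5019 in saline kidneys (1.94 ± 0.14, adjusted p = 1.6e-11). Gdf15, a secreted stress cytokine, rose 9.65-fold, Psrc1, a spindle protein, 30.0-fold, Trp53inp1 6.37-fold and Zmat3 3.59-fold. For each of these 8 genes every 48 h kidney lay above every saline kidney, as for 17.3% of all genes.

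Genes of DNA repair itself moved little. Of 24 tested, 4 rose and 1 fell, against 12.2% of all genes higher and 11.6% lower, and the median was 0.12. Those that rose were Polk, a translesion polymerase (1.33 ± 0.14, adjusted p = 7.1e-08), Rev1, its partner in damage tolerance (0.96), and the excision repair nuclease genes Ercc1 (1.31) and Ercc5 (1.09). Polk was at 504, 643, 649.6 and 574 in the 48 h kidneys, against 232, 230.4, 232 and 246 in the saline kidneys. Ddb2 and Xpc, which recognise damage in nucleotide excision repair, were not called (0.18 and -0.04), nor was Rrm2b, the p53-inducible ribonucleotide reductase subunit (-0.03 ± 0.15, adjusted p = 0.919).

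Among 30 cell death genes 16 rose and 3 fell, against 12.2% of all genes higher and 11.6% lower, with a median of 0.72. Genes that rose included BH3-type triggers and effectors of mitochondrial apoptosis and death receptors. Bbc3 (Puma) was at 4219.9, 4409.6, 3492 and 4289 in the 48 h kidneys, against 721, 637, 755 and 649 in the saline kidneys (2.57 ± 0.19, adjusted p = 3.2e-11). The groups were well apart. Bax, the pore-forming effector, was at 6744 to 8239 at 48 h against 3070.4 to 3434 in saline kidneys (2.30-fold, adjusted p = 1.6e-09). Pmaip1 (Noxa) rose 5.14-fold, Bcl2l11 (Bim) 3.72-fold, and Aen, a p53-induced nuclease, 3.94-fold. Of the receptors, Tnfrsf10b (the TRAIL receptor) rose 7.24-fold, Fas 2.97-fold, and Eda2r, not above background in any saline kidney, at least 7.03-fold. Eda2r could pass the filter only through other groups, and the Eda2r and Bcl2l11 calls were lost with the normexp correction. Mlkl, the executioner of necroptosis, rose (1.90 ± 0.35, adjusted p = 0.00015), whereas Ripk3, the kinase that activates it, was at 101 to 189.5 at 48 h against 77.7 to 124 in saline kidneys and was not called (0.70 ± 0.37, adjusted p = 0.182). Of the 3 lower calls, 0 were left without saline replicate 3 and 1 without saline replicate 4.

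Immediate early genes and the AP-1 factors were high 2 days after the injection. AP-1 is a dimer of Fos and Jun family proteins that answers growth and stress signals, and its genes are usually on for minutes to hours. Of 22 tested, 18 rose and 0 fell, against 12.2% of all genes higher, and the median was 1.70. Fosl1 was at 804, 1080.2, 152 and 252 in the 48 h kidneys, against 5.51, 15.7, 12.2 and 22.6 in the saline kidneys (5.10 ± 0.71, adjusted p = 4e-06). Its replicates 1 and 2 at 48 h were well above replicates 3 and 4, and all 4 were above every saline kidney. Fos was at 196, 269.7, 103 and 125 in the 48 h kidneys, against 10.5, 14.6, 13.6 and 15.1 in the saline kidneys (3.60 ± 0.50, adjusted p = 4e-06). Atf3, a stress-induced partner of AP-1, was at 1974, 2578, 832 and 1264 in the 48 h kidneys, against 79.0, 104, 80.6 and 134 in the saline kidneys (3.97 ± 0.47, adjusted p = 4.5e-07). Egr1 rose 11.3-fold, Junb 4.39-fold, Jun 3.24-fold and Myc 3.72-fold.

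The markers of injured tubule were in part high at 48 h. Of 24 tested, 10 rose and 0 fell, against 12.2% of all genes higher (median 0.90, and 0.60 without 48 h replicate 1). Several well-known markers were not called. Havcr1, a receptor by which injured proximal cells engulf dead ones, was at 13090.0, 8851, 1448 and 3148 in the 48 h kidneys, against 71.5, 143, 87.5 and 230.0 in the saline kidneys, a 40.1-fold difference (5.32 ± 0.64, adjusted p = 4.1e-07). Even the lowest 48 h kidney, replicate 3, was far above the highest saline kidney, and the 48 h kidneys themselves were widely spread. Krt20, a keratin of stressed epithelium, was at 44584, 55729, 13016 and 23162 in the 48 h kidneys, against 521, 638, 215 and 1422 in the saline kidneys (5.70 ± 0.66, adjusted p = 2.4e-07). Lcn2, which binds bacterial siderophores and appears in urine after injury, was at 5178, 3731, 1772 and 3252 in the 48 h kidneys, against 272, 416, 355 and 438 in the saline kidneys (3.16 ± 0.68, adjusted p = 0.00094). Spp1 (osteopontin) rose 2.78-fold, Anxa3 4.91-fold, S100a11 2.41-fold, and Sox9, a transcription factor of repairing tubule, 4.08-fold. The Sox9 call was lost with the normexp correction. Clu (clusterin) was at 70496, 58094, 36295 and 41832 in the 48 h kidneys, against 39016, 35794, 43912 and 50810.0 in the saline kidneys and was not called (0.25 ± 0.21, adjusted p = 0.44). Likewise Vim (0.07), Cd44 (0.08) and Timp1 (1.28) were not called, with overlapping groups in each, though another probe of Cd44 gave 1.07.

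Genes of the cornified envelope, the crosslinked protein shell of epidermis, and keratins of stratified epithelium included genes that rose in kidney. Of 15 tested, 10 rose and 0 fell (median 2.74), against 12.2% of all genes higher. But 3 of the 15 were not well above background in any saline kidney, so they could pass the filter only through other groups. With signal well above background required on all compared arrays, 6 genes were tested and 3 rose (median 1.38), and with the normexp correction 7 of 15 rose (median 1.71). Sprr1a, a small proline-rich envelope precursor, was at 6031, 6822, 1356 and 2479.6 in the 48 h kidneys, against 1354, 214, 329 and 722 in the saline kidneys (2.74 ± 0.50, adjusted p = 0.00016). Replicate 3 at 48 h and replicate 1 of saline nearly met (1356 and 1354). Lce1d was at 1779.9, 2259, 307 and 590.3 in the 48 h kidneys, against 10.5, 17.4, 1.14 and 95.7 in the saline kidneys. Lce1f, below background in all 4 saline kidneys, was at least 11.5-fold higher, and Il36a (Il1f6), an epithelial cytokine of the interleukin 1 family, rose 27.2-fold. Sfn (14-3-3 sigma), an epithelial p53 target, rose 4.15-fold.

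AP-1 is known to act on envelope genes in skin, so their promoters were searched for its site, TGANTCA, and for the core of the antioxidant response element used by Nrf2, TGACNNNGC. Each was sought on both strands of the 250 bases before the start sites in RefSeq's promoter table (GRCm38.p6), and a site such as GCTGAGTCA counts for both motifs. The AP-1 motif was in 6.75% of all 32851 promoters, the antioxidant core in 10.2% and both in 276. Of the 13 promoters matched to the envelope and keratin list (12 of its 18 genes), 4 held the AP-1 motif (30.8%), those of Sprr1a, Sprr2e, Sprr2f and Ivl. Of these, Sprr2e (5.44), Sprr2f (3.65) and Ivl were picked by the motif after their values were seen, and Ivl was not called. Of the 24 promoters of the immediate early list, 0 held the AP-1 motif and 8 the antioxidant core (33.3%). A match is a stretch of letters and was not shown to be bound here. Promoters of 2 envelope genes and of Plaur, the urokinase receptor, which rose 6.82-fold, are printed 5′ to 3′ with motif matches in capitals.
Sprr1a (chr3:92485882-92486131, minus strand): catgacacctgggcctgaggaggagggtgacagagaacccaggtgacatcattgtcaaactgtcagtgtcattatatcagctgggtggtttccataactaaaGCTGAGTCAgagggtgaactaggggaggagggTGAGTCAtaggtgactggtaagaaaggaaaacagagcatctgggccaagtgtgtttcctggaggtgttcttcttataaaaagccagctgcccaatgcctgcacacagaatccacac
Sprr2f (chr3:92364937-92365186, plus strand): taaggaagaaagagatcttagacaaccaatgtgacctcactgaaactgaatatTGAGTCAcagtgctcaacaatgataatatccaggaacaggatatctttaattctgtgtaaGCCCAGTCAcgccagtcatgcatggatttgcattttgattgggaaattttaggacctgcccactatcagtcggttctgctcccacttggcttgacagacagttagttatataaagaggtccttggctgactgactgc
Plaur (chr7:24462233-24462482, plus strand): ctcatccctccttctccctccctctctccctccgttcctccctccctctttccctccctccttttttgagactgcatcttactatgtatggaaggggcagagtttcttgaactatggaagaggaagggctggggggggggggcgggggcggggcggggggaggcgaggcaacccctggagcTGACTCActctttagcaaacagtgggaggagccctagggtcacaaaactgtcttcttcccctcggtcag
In Sprr1a the AP-1 matches began 116 and 146 bases before the start, and the second overlapped a match to the antioxidant core on the other strand. The Sprr2f match began 197 bases before the start, with an antioxidant core on the other strand 137 bases before the start, and the Plaur match 69 bases before.

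Nrf2 is the transcription factor that raises glutathione synthesis and detoxifying enzymes when electrophiles inactivate its inhibitor Keap1. Of 29 genes of this programme and of glutathione handling, 16 rose and 2 fell (median 0.69). Over all genes 12.2% were higher and 11.6% lower. Nqo1, a quinone reductase, was at 9723, 9458, 10151 and 9873 in the 48 h kidneys, against 2371, 2022, 2084 and 2742 in the saline kidneys (2.10 ± 0.14, adjusted p = 1.1e-11). The 4 kidneys at 48 h lay close together. Cbr3, a carbonyl reductase, was at 13014, 8578, 11031 and 12552 in the 48 h kidneys, against 677, 632, 629 and 711 in the saline kidneys, a 16.9-fold difference (4.07 ± 0.23, adjusted p = 3e-13). Gsta2, a glutathione transferase, rose 4.86-fold, Srxn1 (sulfiredoxin) 3.73-fold, Mgst1 3.04-fold, Hmox1 (heme oxygenase 1) 2.76-fold and Txnrd1 2.02-fold. The subunits of the enzyme that makes gamma-glutamylcysteine differed, in that the catalytic Gclc rose by 0.69 ± 0.24, adjusted p = 0.0329, and the modifier Gclm was at 1476 to 1653 at 48 h against 1475 to 1753 in saline kidneys (-0.01 ± 0.10, adjusted p = 0.966). The Gclc call was lost without saline replicate 3 or 4 or 48 h replicate 1 or 2. Ggt1, which breaks glutathione down at the proximal brush border, was among the 2 that fell (-1.17 ± 0.13, adjusted p = 8.7e-08). Of the 36 promoters matched to the list, 11 held the antioxidant core (30.6%) and 4 the AP-1 motif (11.1%). The promoters of a member with paired AP-1 matches and of one with the antioxidant core are printed with matches in capitals.
Srxn1 (chr2:152105274-152105523, plus strand): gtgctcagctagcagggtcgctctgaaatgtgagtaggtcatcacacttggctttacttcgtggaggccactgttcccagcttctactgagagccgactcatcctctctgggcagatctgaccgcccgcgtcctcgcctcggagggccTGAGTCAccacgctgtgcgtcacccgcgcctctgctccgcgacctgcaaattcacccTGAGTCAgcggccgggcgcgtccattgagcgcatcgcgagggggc
Mgst1 (chr6:138140277-138140526, plus strand): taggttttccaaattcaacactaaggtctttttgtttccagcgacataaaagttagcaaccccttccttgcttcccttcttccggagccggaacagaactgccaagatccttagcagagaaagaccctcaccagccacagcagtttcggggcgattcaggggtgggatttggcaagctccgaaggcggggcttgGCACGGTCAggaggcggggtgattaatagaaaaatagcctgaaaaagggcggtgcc
The Srxn1 matches began 45 and 102 bases before the start, and the Mgst1 match 56 bases before, on the other strand. Gclm, which was not called, also held the antioxidant core.

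Ligands of the epidermal growth factor system went both ways. Egf itself, made by distal convoluted tubule and thick limb and shed into urine, was at 4916, 5095, 10231 and 7717 in the 48 h kidneys, against 43636, 41189, 45771 and 44725 in the saline kidneys, a log2 difference of -2.72 ± 0.28, adjusted p = 3.5e-08. All 4 kidneys at 48 h were far below every saline kidney. Areg (amphiregulin), an injury-induced ligand, was at 84.6, 79.8, 20.4 and 28.7 in the 48 h kidneys, against 2.15, 0.85, 2.18 and 7.54 in the saline kidneys (4.25 ± 0.51, adjusted p = 3.4e-07), with 1 of 4 saline kidneys above background. Nrg1 rose 2.82-fold, and the receptor Egfr (0.85 ± 0.29, adjusted p = 0.0334) and its inhibitor Lrig1 (0.53) rose too. The Egfr call was lost when any 1 array other than 48 h replicate 1 was left out. The Areg and Lrig1 calls were lost with the normexp correction. Hbegf was not called (0.94 ± 0.48, adjusted p = 0.162), and was above every saline kidney in all 4, as were 17.3% of all genes. Against 12.2% of all genes higher and 11.6% lower, 5 of 13 genes of the family rose and 2 fell (median 0.24). These counts rest on single arrays: 2 were higher without saline replicate 1, saline replicate 3 or 48 h replicate 2, 3 without saline replicate 4, 48 h replicate 1 or 48 h replicate 4, and 1 was lower without each of these in turn and without saline replicate 2.

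Some chemokine genes rose and others were not called. Against 12.2% of all genes higher and 11.6% lower, 7 of 16 genes of chemokines and adhesion molecules rose and 1 fell. Their median, 0.42, rested on single arrays: it was 0.0006 without saline replicate 1, 0.15 without saline replicate 4, 0.05 without 48 h replicate 1, 0.27 without 48 h replicate 2 and 0.86 without 48 h replicate 3, and it was 0.11 with slide as a fixed block. Cxcl1, which attracts neutrophils, was at 2358, 3477, 1488 and 1488 in the 48 h kidneys, against 72.9, 113, 156 and 116 in the saline kidneys (4.22 ± 0.36, adjusted p = 9.9e-10). Cxcl10, which attracts T cells, was at 4894, 5964, 2858 and 3287 in the 48 h kidneys, against 342, 491, 456 and 336 in the saline kidneys (3.35 ± 0.44, adjusted p = 1.9e-06). Cxcl2, below background in all saline kidneys, was at least 6.79-fold higher, and Icam1, a ligand for leukocyte integrins, rose 4.11-fold. Cxcl2 could pass the filter only through other groups, and its call was lost with the normexp correction. Ccl2, which attracts monocytes, was at 945, 636, 138 and 242 in the 48 h kidneys, against 87.5, 603, 697 and 113 in the saline kidneys and was not called (0.57 ± 0.59, adjusted p = 0.544). Its saline kidneys were split, with replicates 2 and 3 above 48 h replicates 3 and 4. The 1 lower call of the list was lost without saline replicate 1, saline replicate 2 or 48 h replicate 3.

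Of 26 cytokine, cytokine receptor and NF-kB feedback genes 13 rose and 0 fell (median 0.96), where 12.2% of all genes were higher. Tnfrsf12a, the TWEAK receptor of injured tubule, was at 18277, 17060.0, 9223 and 12320.0 in the 48 h kidneys, against 2092, 1908, 2209.8 and 2362 in the saline kidneys (2.68 ± 0.28, adjusted p = 3.7e-08). Genes that NF-kB induces to limit itself rose, Tnfaip3 (A20) 3.83-fold and Nfkb2 2.95-fold, as did Socs3 (2.10) and Stat3 (0.83) of the interleukin 6 pathway. Of the classical inflammatory cytokines, Il1b was at 88.2, 80.0, 21.0 and 42.0 in the 48 h kidneys, against 57.3, 107.3, 105 and 58.3 in the saline kidneys (-0.65 ± 0.41, adjusted p = 0.271). Il6 was above background in 3 of 4 kidneys at 48 h and in 0 of 4 saline kidneys, at 16.2, 9.36, 1.35 and 4.55 in the 48 h kidneys, against 1.45, 2.05, 1.24 and 1.10 in the saline kidneys, and was not called (adjusted p = 0.232). Tnf reached 23.9, 44.8, 16.9 and 24.4 in the 48 h kidneys, against 9.82, 22.9, 17.6 and 8.67 in the saline kidneys, just past the threshold at an adjusted p of 0.0499 with overlapping groups. The Tnf call was lost without saline replicate 1 or 4 or 48 h replicate 1, 2 or 4. It was also lost with slide as a fixed block or the replicate number as a block.

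Acute phase and complement genes, best known from liver, rose in the kidney. Of 18 tested 9 rose and 1 fell, against 12.2% of all genes higher and 11.6% lower, and the median was 1.49. Fgg, the gamma chain of fibrinogen, was at 16889, 26168, 13727 and 16056 in the 48 h kidneys, against 1066, 1247, 1074 and 1024 in the saline kidneys, a 16.1-fold difference (4.01 ± 0.61, adjusted p = 1.5e-05). C3, the central complement component, was at 29185, 22085, 17796 and 17249 in the 48 h kidneys, against 1614, 5462, 3117 and 2826 in the saline kidneys (2.83 ± 0.47, adjusted p = 5e-05). Saa3 rose 11.4-fold, Fga 9.23-fold, Fgb 3.96-fold and Lrg1, a leucine-rich glycoprotein, 3.75-fold. The Fgb call was lost without saline replicate 3 or 4 or 48 h replicate 1. The 1 lower call was lost without saline replicate 3, saline replicate 4 or 48 h replicate 2. In the same arrays the Mup genes and Serpina3k, which are also made by liver, were lower, by folds that vary with saline replicate 1. The source of these transcripts was not tested.

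Of 22 interferon-stimulated genes 13 rose and 0 fell (median 0.88), against 12.2% of all genes higher. Ddx58, which encodes the RNA sensor RIG-I, was at 3925, 3653, 2867 and 3641 in the 48 h kidneys, against 1291, 1286, 1253 and 1212 in the saline kidneys (1.47 ± 0.10, adjusted p = 1.6e-11), and another probe gave 0.36. Oasl1 rose 12.0-fold, Isg15 3.72-fold, Irf7 3.59-fold, Tap1, the peptide pump of antigen presentation, 3.25-fold, Ifit1 3.34-fold and Ifih1 (MDA5) 2.07-fold.

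The markers of immune cells did not rise with these inflammatory genes. Of 14 macrophage and monocyte genes 8 fell and 0 rose (median -0.83), against 11.6% of all genes lower. Their summed scaled intensity ran from 15315 to 22206 at 48 h and from 27403 to 30167 in saline kidneys. Such sums, here and below, weigh the brightest probes most and do not measure the amount of a cell type. Csf1r, the receptor on which macrophages depend, was at 5425, 6011, 6332 and 6898 in the 48 h kidneys, against 10626, 9435, 8705 and 10266 in the saline kidneys (-0.66 ± 0.16, adjusted p = 0.00296), and its 3 probes ran from -0.81 to -0.11. Ccr2, of recruited monocytes, was at 36.1, 32.6, 20.3 and 30.2 in the 48 h kidneys, against 67.8, 177, 113 and 118 in the saline kidneys (-1.95 ± 0.41, adjusted p = 0.00084). Mrc1 (-1.08) and Ptprc, the pan-leukocyte CD45 (-0.84), fell as well. The Ccr2, Mrc1 and Ptprc calls were lost with the normexp correction. Cd14, which tubule cells can also express, was not called (1.08 ± 0.46, adjusted p = 0.0901). It was above every saline kidney, as were 17.3% of all genes.

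Of 7 genes of MHC class II presentation 3 fell and 0 rose (median -0.85, summed level 11923 to 15111 at 48 h and 19973 to 29736 in saline kidneys). Over all genes 11.6% were lower. Cd74, the invariant chain, was at 1901, 1849, 1687 and 2007 in the 48 h kidneys, against 4491, 3615, 2969 and 2976 in the saline kidneys (-0.90 ± 0.28, adjusted p = 0.0194). Without saline replicate 1, none of the 7 was called. Of 9 neutrophil genes 1 fell, S100a9 (-1.79 ± 0.65, adjusted p = 0.0433), and S100a8 was at 31.5, 41.0, 18.3 and 28.5 in the 48 h kidneys, against 25.5, 210.2, 134 and 132 in the saline kidneys (-1.78 ± 0.69, adjusted p = 0.0589). The S100a9 call was lost when any 1 of the 8 arrays other than saline replicate 1 was left out. The summed level of the neutrophil genes ran from 42862 to 48088 at 48 h and from 44608 to 51871 in saline kidneys. That sum rests mainly on probes far brighter than that of S100a8, which was at most 210.2. Of 8 lymphocyte genes 0 were called (median -0.40), and Cd3e was at 171 to 217 at 48 h against 203 to 278 in saline kidneys. How far these markers bear on the inflammatory genes was not tested.

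Of the resident cells, podocyte genes had 0 of 8 called (median 0.09; Nphs1 0.47) and endothelial genes 1 of 12 (median -0.19), Emcn (-0.80 ± 0.29, adjusted p = 0.0469). Fibroblast and pericyte genes had 2 of 8 lower (median -0.58), Acta2 (-0.77 ± 0.28, adjusted p = 0.0483) and Thy1 (-0.85). Over all genes 11.6% were lower. The Emcn call was lost when any 1 array other than 48 h replicate 1 was left out. It was also lost with slide as a fixed block or the replicate number as a block. No fibroblast gene was called without saline replicate 1 or 4 or without 48 h replicate 3 or 4, and 1 was called without 48 h replicate 2. Of 7 red blood cell genes 5 fell (median -4.20, summed level 2212 to 3572 at 48 h and 6753 to 25637 in saline kidneys), with Hba-a1 at 284, 65.0, 127 and 126 in the 48 h kidneys, against 5009.7, 3847, 1040.4 and 1771 in the saline kidneys. Saline replicates 1 and 2 were above saline replicates 3 and 4, and all were above every 48 h kidney. The part of blood content in other differences was not tested. Adipocyte genes varied between animals: Cidec, a lipid droplet protein, rose (3.96 ± 0.67, adjusted p = 5.6e-05), and Adipoq was not called (1.71 ± 1.29, adjusted p = 0.37).

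In each list of transport genes some members fell and others did not pass the test. In the proximal tubule, 6 of 18 genes of endocytosis and of sugar, phosphate and acid transport fell and 0 rose, against 11.6% of all genes lower, with a median of -0.57. The 6 became 11 with slide as a fixed block, 10 with slide as a random block, 13 with the compared groups alone, 15 with array weights and 9 without 48 h replicate 3. Slc34a1, the sodium phosphate cotransporter, was at 17862, 15462, 32694 and 29966 in the 48 h kidneys, against 68513, 69744, 68334 and 66215 in the saline kidneys (-1.58 ± 0.22, adjusted p = 4.7e-06). Replicates 1 and 2 were lowest, and all 4 were well below every saline kidney. Lrp2 (megalin), the endocytic receptor for filtered protein, was at 23962, 20128, 39346 and 31788 in the 48 h kidneys, against 66912, 67576, 77816 and 78704 in the saline kidneys (-1.38 ± 0.22, adjusted p = 4e-05). Its partner Cubn was not called (-0.54 ± 0.25, adjusted p = 0.129). Neither were Slc5a2, the glucose carrier SGLT2 (-0.64 ± 0.25, adjusted p = 0.0604), and Aqp1 (-0.38, adjusted p = 0.118). All 4 kidneys were below saline for each of these, and every 48 h array lay below every saline array for 17.4% of all genes.

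Carriers of organic ions, drugs and metals went both ways, 7 higher and 9 lower of 22 (median -0.34, and -0.17 without 48 h replicate 1). Over all genes 12.2% were higher and 11.6% lower. Carriers that bring ions into the cell had lower members. Slc22a2, the cation carrier OCT2 through which cisplatin enters proximal cells, was at 9082, 10686, 12932 and 13527 in the 48 h kidneys, against 20181, 19109, 18734 and 20648 in the saline kidneys (-0.78 ± 0.16, adjusted p = 0.00044). Slc31a1, the copper and platinum carrier CTR1, was at 3630.1 to 4452 at 48 h against 5241 to 6002 in saline kidneys (-0.53 ± 0.14, adjusted p = 0.00723). The Slc31a1 call was lost with the normexp correction. Slc47a1 (MATE1), which exports cations to urine, fell too (-0.89), as did the anion carriers Slc22a6 (OAT1, -0.82), Slc22a7 (-2.14) and Slco1a1 (-2.14). On the efflux side, Abcb1b, a P-glycoprotein gene, was at 2036, 1916, 2222 and 2220.5 in the 48 h kidneys, against 102, 176, 200.2 and 296 in the saline kidneys, an 11.6-fold difference (3.53 ± 0.38, adjusted p = 5.2e-08). Abcb1a rose 2.89-fold and Abcc2 (MRP2), which exports glutathione conjugates, 2.33-fold. The metallothioneins, which bind heavy metals, rose, Mt1 by 1.12 ± 0.33, adjusted p = 0.0148 and Mt2 by 1.80 ± 0.43, adjusted p = 0.00255.

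Of 16 amino acid carriers 3 fell and 1 rose (median -0.11), a share of lower calls not far from the 11.6% of all genes. Slc7a13, a carrier of the straight proximal tubule, was at 1349.7, 1969.6, 2678 and 1964 in the 48 h kidneys, against 15849, 11124, 13868 and 15287 in the saline kidneys (-2.85 ± 0.34, adjusted p = 3.3e-07), a loss of most of its signal in all 4 kidneys. Slc6a19, the main neutral amino acid carrier of the early proximal tubule (-1.05), and Slc6a20b (-1.13) fell. Slc38a3, the basolateral glutamine carrier induced in acidosis, rose (1.34 ± 0.36, adjusted p = 0.0069). The cystine carrier subunits Slc3a1 (-0.27) and Slc7a9 (-0.25) were not called.

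Beyond the proximal tubule, genes of the distal convoluted tubule fell. Of 17 genes of thick limb and distal convoluted tubule 8 fell and 0 rose (median -0.68), against 11.6% of all genes lower. Slc12a3, the thiazide-sensitive sodium chloride cotransporter, was at 759, 997, 1205 and 559 in the 48 h kidneys, against 5041, 5206, 6940.4 and 8043 in the saline kidneys (-2.87 ± 0.25, adjusted p = 1e-09). Pvalb, a calcium-binding protein of the early distal convoluted tubule, was at 169, 258, 222 and 312 in the 48 h kidneys, against 1907, 1839.8, 2359 and 2927 in the saline kidneys (-3.24 ± 0.32, adjusted p = 1.7e-08), and another probe gave -4.25. Trpm6, the magnesium channel, was at 417, 438, 433 and 248 in the 48 h kidneys, against 1732, 1639, 2131 and 2558 in the saline kidneys (-2.41 ± 0.24, adjusted p = 1.7e-08). In each of these the highest 48 h kidney was far below the lowest saline kidney. Calb1 (-2.07) and Kl (Klotho, -1.65) fell as well. The thick limb genes Umod (-0.66 ± 0.30, adjusted p = 0.117) and Slc12a1 (-0.63 ± 0.43, adjusted p = 0.317) were not called. For Umod every 48 h kidney lay below every saline kidney, as for 17.4% of all genes. Missing the threshold does not show that these genes were unchanged.

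Of 20 collecting duct genes 4 fell and 0 rose (median -0.50), where 11.6% of all genes were lower. They were Aqp3 (-0.94 ± 0.17, adjusted p = 0.00015), the sodium channel subunit Scnn1a (-0.57), and the intercalated cell genes Atp6v1b1 (-1.18) and Slc4a1 (-1.92). Red blood cells also express Slc4a1. Without 48 h replicate 1, 1 of 20 was called, and with the compared groups alone 8 were and with array weights 13. Aqp2, the water channel under vasopressin, was at 10458, 5674, 6987 and 7221 in the 48 h kidneys, against 17817, 7999.8, 10290.0 and 11042 in the saline kidneys and was not called (-0.61 ± 0.36, adjusted p = 0.245). Of 19 transcription factors that specify nephron segments 3 fell and 1 rose, close to the shares over all genes, and Hnf4a, a regulator of proximal tubule genes, was not called (-0.44 ± 0.26, adjusted p = 0.227). Cyp24a1, which degrades vitamin D, was at 8568, 9173, 7463 and 2777 in the 48 h kidneys, against 469, 1066, 908 and 3899 in the saline kidneys (2.46 ± 0.91, adjusted p = 0.0486), and its call was lost without any of saline replicates 1 to 3 or 48 h replicates 1 to 3. Pth1r, the parathyroid hormone receptor, fell (-1.19 ± 0.22, adjusted p = 0.00017), and Agt, angiotensinogen, rose (0.98). Of the 9 endocrine genes 2 rose and 2 fell, and no more than 1 rise was left with any 1 array left out except saline replicate 4. The 1 transcription factor that rose was not called without 48 h replicate 2, and 2 were called without 48 h replicate 3 or 4.

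**Figure D2:**
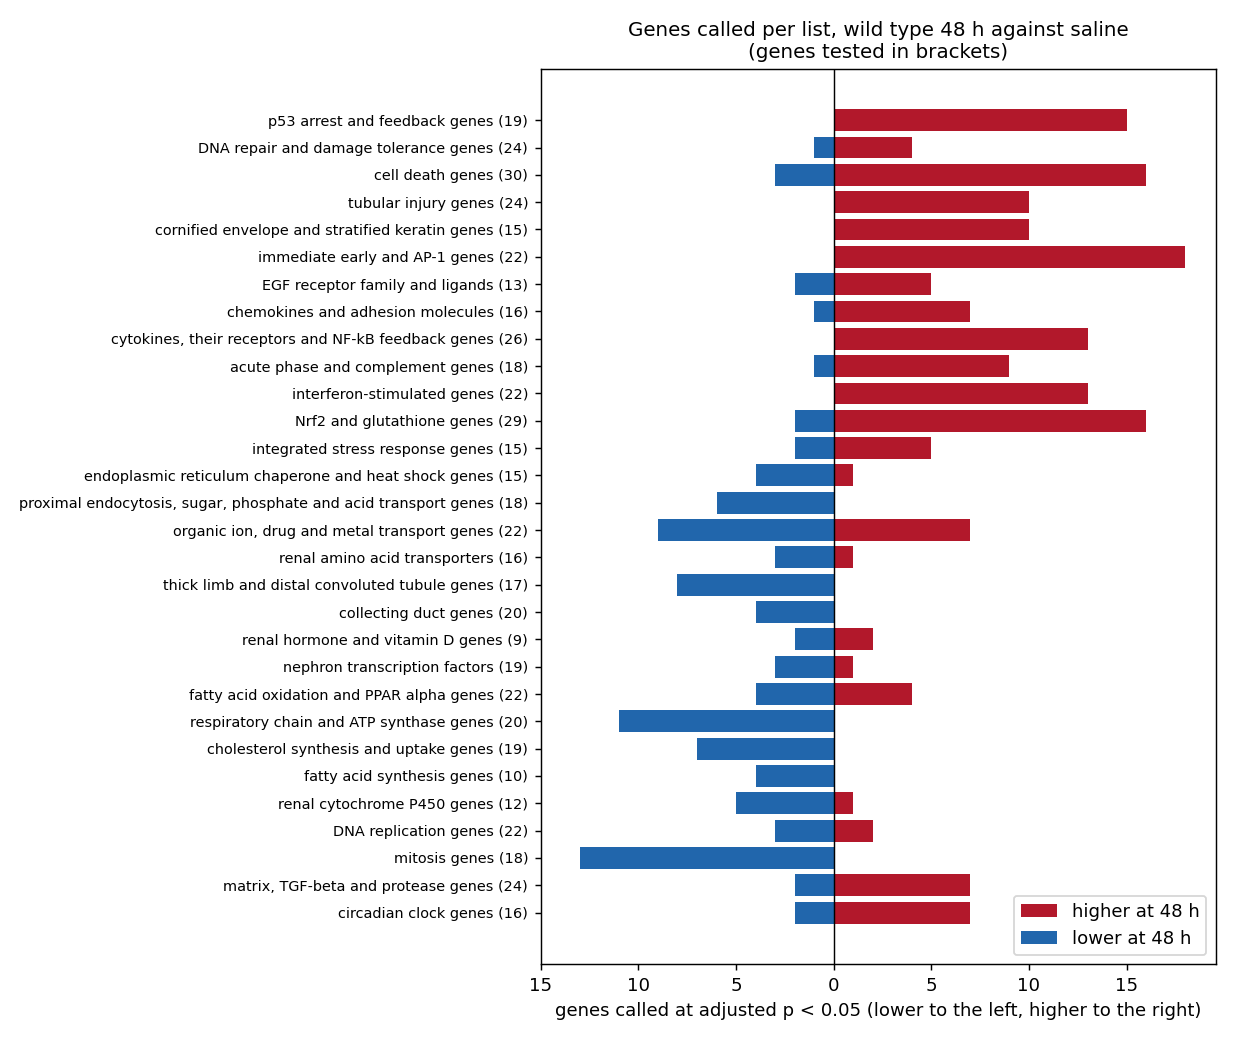
Number of genes called at an adjusted p under 0.05 in each of 30 gene lists in wild type kidney 48 h after cisplatin against saline, higher to the right and lower to the left, with the number tested in brackets. Immediate early (18 of 22) and p53 (15 of 19) genes were called only higher, and mitosis (13 of 18) and respiratory chain (11 of 20) genes only lower. Over all genes 12.2% were higher and 11.6% lower.

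Mitochondrial energy genes fell by small amounts. Of 20 respiratory chain and ATP synthase genes 11 fell and 0 rose (median -0.30), against 11.6% of all genes lower. All 20 differences lay between -0.72 and -0.07. Ndufs1, of complex I, was at 14958, 15095, 22289 and 20574 in the 48 h kidneys, against 29368, 27721, 29877 and 31595 in the saline kidneys (-0.72 ± 0.11, adjusted p = 1.7e-05). Uqcrc2 of complex III (-0.41) and Atp5a1 of ATP synthase (-0.43) fell in the same range. With the background corrected from the median signals, 3 of the 20 were called. Without 48 h replicate 2, 6 were called, and without 48 h replicate 1 or saline replicate 1, 7.

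Of 22 fatty acid oxidation and PPAR alpha genes 4 rose and 4 fell (median 0.09), not far from the 12.2% higher and 11.6% lower of all genes. Acadm, the medium-chain dehydrogenase, was at 37900.0, 42786, 64804 and 60138 in the 48 h kidneys, against 118930.0, 122250.0, 123880.0 and 110010.0 in the saline kidneys (-1.24 ± 0.16, adjusted p = 8.2e-07), and Cpt1a (-0.43) and Ehhadh (-0.78) fell. Pdk4, the kinase that shuts off pyruvate oxidation, rose (1.80 ± 0.46, adjusted p = 0.0046), together with the lipid droplet coat gene Plin2, at 31470.0, 29040.0, 17649 and 20342 in the 48 h kidneys, against 5448, 4762, 5479 and 6417 in the saline kidneys (2.12 ± 0.38, adjusted p = 0.00011), Angptl4 (1.17) and Acot2 (0.82). Ppara itself (0.57 ± 0.34, adjusted p = 0.241) and its coactivator Ppargc1a (-0.60 ± 0.42, adjusted p = 0.332) were not called. Only 2 genes were lower without saline replicate 4, 48 h replicate 1 or 48 h replicate 2.

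Of 19 cholesterol genes 7 fell and 0 rose (median -0.34), where 11.6% of all genes were lower. Idi1, isopentenyl diphosphate isomerase, was at 2824, 3323, 2888 and 2823 in the 48 h kidneys, against 15294, 11192, 10419 and 16112 in the saline kidneys (-2.14 ± 0.22, adjusted p = 2.7e-08), and Cyp51 at 249 to 372 at 48 h against 1389.6 to 1666 in saline kidneys (-2.19 ± 0.27, adjusted p = 5.4e-07). Sqle was not called (0.18 ± 0.18, adjusted p = 0.515). Of 10 fatty acid synthesis genes 4 fell, among them Fasn (-0.62) and Acaca (-0.99). The Fasn call was lost with the normexp correction. Of 12 renal cytochrome P450 genes 5 fell and 1 rose (median -0.59), against 11.6% of all genes lower and 12.2% higher. Cyp2e1, which oxidises ethanol and small toxicants, was at 11658, 12122, 32113 and 23588 in the 48 h kidneys, against 99900.0, 81803, 94322 and 89917 in the saline kidneys (-2.33 ± 0.30, adjusted p = 1.2e-06). Replicates 1 and 2 were again lower than replicates 3 and 4, and all were below every saline kidney.

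Of 18 mitosis genes tested 13 fell and 0 rose (median -1.24), against 11.6% of all genes lower. Mki67, the proliferation antigen, was at 169.8, 96.3, 68.6 and 82.1 in the 48 h kidneys, against 274, 512, 283 and 700.1 in the saline kidneys (-2.06 ± 0.32, adjusted p = 2e-05), and Ccna2 at 73.8, 46.8, 45.4 and 48.4 in the 48 h kidneys, against 117, 155.3, 122 and 220.1 in the saline kidneys (-1.50 ± 0.24, adjusted p = 2.3e-05). Saline replicates 2 and 4 were the highest for both genes. Ccnd1, the G1 cyclin of growth factor signalling, fell to 3938 to 5418 at 48 h against 9046 to 12600.0 in saline kidneys (-1.26 ± 0.18, adjusted p = 5.1e-06). With the background corrected from the median signals 3 of the 18 were called. DNA replication genes did not go with them: 2 of 22 rose and 3 fell (median 0.12), where 12.2% of all genes were higher and 11.6% lower. Rrm2, the S phase ribonucleotide reductase subunit, rose (0.77 ± 0.27, adjusted p = 0.0342), Pola1 of DNA polymerase alpha fell (-1.56 ± 0.20, adjusted p = 1.2e-06), and Pcna was at 4191 to 5450.2 at 48 h against 3604 to 4013 in saline kidneys and was not called (0.35 ± 0.20, adjusted p = 0.221). No replication gene was higher without saline replicate 3 or 48 h replicate 2, 1 was higher without saline replicate 1 or 48 h replicate 1, and 1 was lower without saline replicate 2, saline replicate 4 or 48 h replicate 4.

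Of 15 integrated stress response genes 5 rose and 2 fell (median 0.46), among them Ddit3 (CHOP), at 1037, 1283, 674 and 832 in the 48 h kidneys, against 392, 339.9, 381 and 400.0 in the saline kidneys (1.30 ± 0.22, adjusted p = 6.9e-05), Chac1 (1.78) and Trib3 (1.21). Atf4 (0.29 ± 0.25, adjusted p = 0.455) and Asns (0.13) were not called. Of 15 chaperone and heat shock genes 4 fell and 1 rose: the reticulum chaperones Hsp90b1 (-0.61 ± 0.12, adjusted p = 0.00028), Calr (-0.59) and Pdia6 (-0.47) and the cytosolic Hsph1 (-1.04) were lower. The shares over all genes, to set beside both lists, were 12.2% higher and 11.6% lower. Hspa5 (BiP) was at 44783, 37107, 34569 and 40413 in the 48 h kidneys, against 46854, 46415, 58926 and 37184 in the saline kidneys and was not called (-0.26 ± 0.18, adjusted p = 0.33). The 1 higher call was lost without saline replicate 2, 48 h replicate 1 or 48 h replicate 2, and 1 stress response gene was lower without saline replicate 3, 48 h replicate 1 or 48 h replicate 2.

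Of 24 genes of matrix, TGF-beta and proteases 7 rose and 2 fell (median 0.14), where 12.2% of all genes were higher and 11.6% lower. Plaur was at 4669, 4020.2, 965 and 1655 in the 48 h kidneys, against 367, 313, 289 and 419 in the saline kidneys (2.77 ± 0.57, adjusted p = 0.00065). Ccn1 (Cyr61), a YAP target, rose 6.78-fold, whereas its relative Ccn2 (Ctgf, 0.16), Tgfb1 (0.23) and Col1a1 (-0.88 ± 0.44, adjusted p = 0.152) were not called. Without 48 h replicate 1, 5 were higher and 6 lower, without 48 h replicate 2, 4 higher and 2 lower, and without 48 h replicate 3, 9 higher and 1 lower. Of 16 clock genes 7 rose and 2 fell: the repressors Per1 (1.74 ± 0.23, adjusted p = 2e-06), Per2 (1.41) and Cry1 (4.00-fold) were higher and the activator Arntl (Bmal1) lower (-0.85 ± 0.23, adjusted p = 0.00792). Of the lower calls 1 was left without saline replicate 3 or 48 h replicate 1. The Cry1 and Arntl calls were lost with the normexp correction. The sources used here do not give the hour of day at which kidneys were taken.

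The 4 kidneys at 48 h differed among themselves, in a similar order for several lists. Averaged over the 24 injury genes, replicates 1 to 4 stood 1.79, 1.61, 0.55 and 1.08 above the saline mean on the log2 scale. The cornified genes gave 3.75, 3.98, 1.64 and 2.58, the cytokine genes 1.56, 1.53, 0.49 and 0.95, and the chemokine genes 1.47, 1.30, 0.14 and 0.81. In each of these replicates 1 and 2 were highest and replicate 3 lowest. The proximal transport genes ran the same way in the negative direction, at -0.79, -0.86, -0.40 and -0.51. The p53 genes, at 2.47, 2.57, 2.07 and 2.14, had replicates 1 and 2 highest as well. The Nrf2 genes were at 0.85, 0.69, 0.72 and 0.70, a range of 0.16. Without replicate 3, 12 of 24 injury genes, 15 of 22 interferon-stimulated genes and 9 of 18 proximal transport genes were called in the direction given above, in place of 10, 13 and 6. Slides 2 and 4 each held 1 array of either group (48 h replicate 3 with saline replicate 4, and 48 h replicate 2 with saline replicate 2). Within slides 2 and 4 the median difference was 2.20 and 2.73 for the p53 genes, 0.12 and 1.18 for the injury genes, 0.91 and 4.70 for the cornified genes, 0.03 and -0.05 for the chemokine genes, and -0.40 and -0.90 for the proximal transport genes. With slide as a fixed block 208 of 220 genes kept their call, and Acta2, Agt, Cyp24a1, Egfr, Emcn, Gclc, Rrm2, S100a9, Scnn1a and Tnf were among the 12 that did not.

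**Figure D3:**
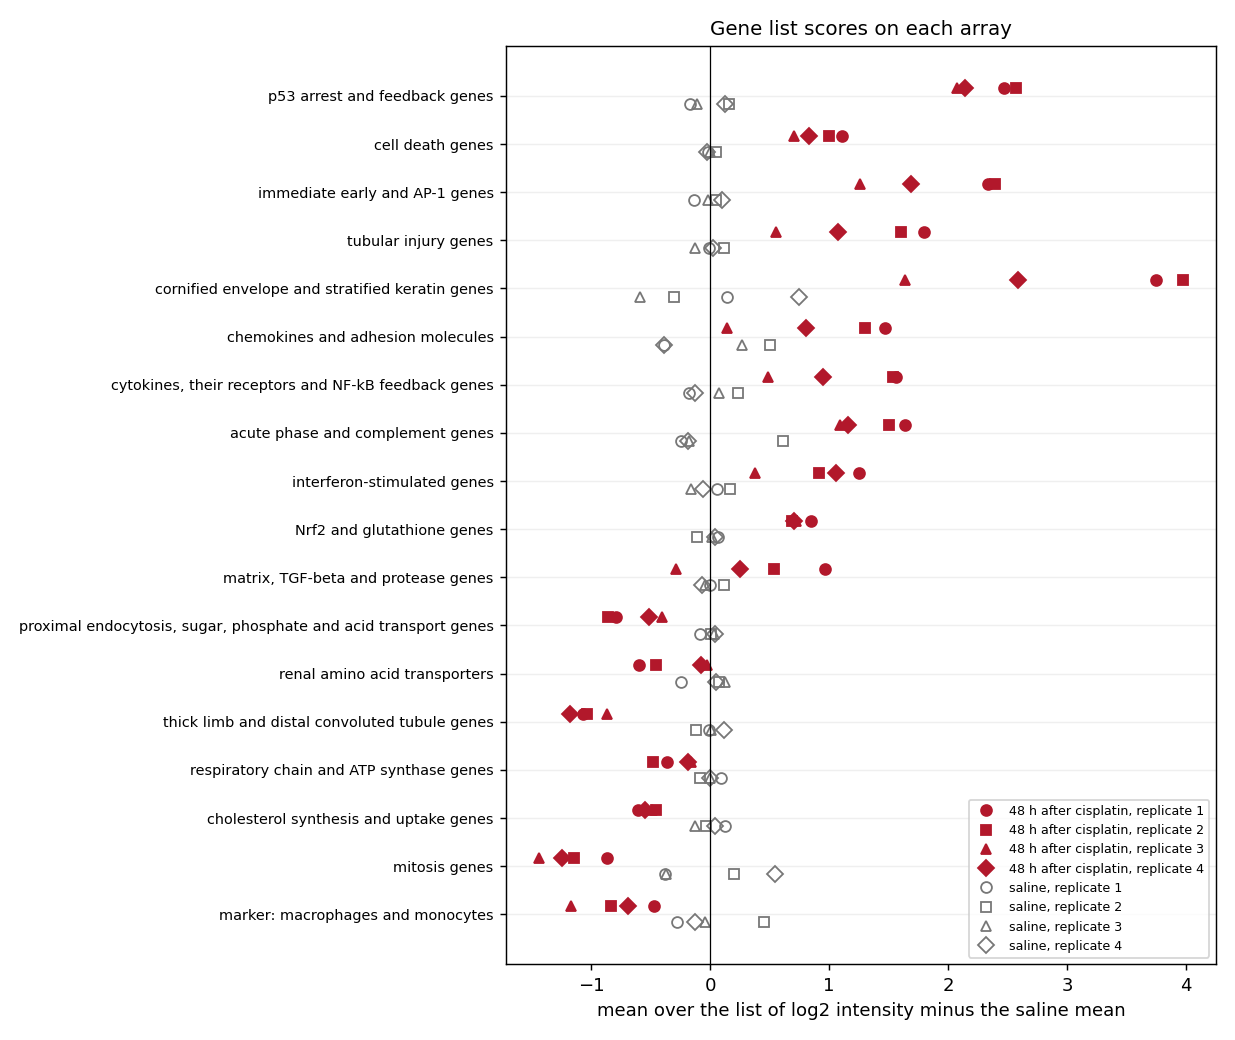
Mean over each gene list of log2 intensity minus the saline mean, for each array, with 48 h kidneys as filled red symbols above saline kidneys as open grey symbols and symbol shape giving the replicate. Replicate 3 at 48 h was closest to saline for injury (0.55) and chemokine (0.14) genes, while the p53 genes were 2.07 or more in every 48 h kidney.

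Setting 48 h against 24 h asked what differed after the first day. The genes called against the same saline arrays were 38.7% at 24 h, 23.8% at 48 h and 25.3% at 72 h. Between 48 h and 24 h, 3112 of 23749 genes were called (13.1%), 1398 higher at 48 h (5.89%) and 1714 lower (7.22%), with a median over all genes of -0.06. The acute phase and complement list had 10 of 18 higher at 48 h than at 24 h and 0 lower (median 1.49). Lrg1 was 2.07 ± 0.33, adjusted p = 0.00014 and C3 2.33 ± 0.47, adjusted p = 0.0013 on the log2 scale of 48 h over 24 h. Tubular injury genes had 7 of 24 higher and 0 lower, Spp1 (1.29 ± 0.23, adjusted p = 0.00039) and Lcn2 (2.22 ± 0.68, adjusted p = 0.0281) among them, and interferon-stimulated genes 6 of 22 higher. Cornified genes had 4 of 15 higher. On the other side, p53 genes had 4 of 19 lower and 1 higher, with Trp53inp1 at -0.70 ± 0.20, adjusted p = 0.0178, and cell death genes 5 of 30 lower and 1 higher, with Bbc3 at -0.77 ± 0.19, adjusted p = 0.00546. Nrf2 genes had 7 of 29 lower and 1 higher, with Hmox1 at -1.09 ± 0.33, adjusted p = 0.0261. Reticulum chaperone genes had 6 of 15 higher, with Hspa5 at 0.74 ± 0.18, adjusted p = 0.0065, and Lrp2 (0.86 ± 0.22, adjusted p = 0.0109), Cubn (1.54 ± 0.25, adjusted p = 0.00017) and Umod (1.28 ± 0.30, adjusted p = 0.00498) were also higher than at 24 h. Without 24 h replicate 2, 1763 genes were called in all, and without 24 h replicate 4, 2030. None of the 22 immediate early genes was called between these times.

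The named genes with the smallest adjusted p in that comparison were mostly genes that were lowest at 24 h. Atg7, which autophagy requires, was at 1654, 1544, 1573 and 1621 in the saline (0 h) kidneys, 369, 329.8, 351 and 376 at 24 h, 959, 815, 990.1 and 929 at 48 h and 1549, 1691, 1575 and 1480.5 at 72 h (48 h over 24 h 1.37 ± 0.11, adjusted p = 1.7e-08). The saline, 24 h and 48 h kidneys did not overlap, and the 72 h kidneys overlapped the saline ones. Tbc1d22a (1.66 ± 0.14, adjusted p = 2e-08), Btbd9 (1.53 ± 0.16, adjusted p = 1.2e-06), the ubiquitin conjugase gene Ube2e2 (2.25 ± 0.24, adjusted p = 1.2e-06), the Hippo kinase gene Stk3 (1.71 ± 0.18, adjusted p = 1.2e-06) and Gbe1, the glycogen branching enzyme (1.30 ± 0.14, adjusted p = 1.2e-06), followed the same course: each was lower than saline at 48 h (-0.70, -1.17, -0.94, -0.55 and -0.45) and lower still at 24 h (-2.36, -2.70, -3.19, -2.26 and -1.75). These differences share the saline arrays. Mthfd1l, a mitochondrial folate enzyme, was at 90.2, 95.0, 74.9 and 99.3 in the saline (0 h) kidneys, 51.0, 46.2, 75.1 and 61.1 at 24 h, 293, 227, 345 and 269 at 48 h and 332, 314, 356 and 406 at 72 h, above saline at 48 h (1.65 ± 0.16, adjusted p = 1.2e-08). Unc5b, a netrin receptor and p53 target, was higher than at 24 h (1.41 ± 0.13, adjusted p = 6e-08), with differences from saline of -0.43 at 24 h and 0.98 at 48 h.

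Between 48 and 72 h little changed by the test. Only 207 genes were called (0.872%), 157 higher at 72 h (0.661%) and 50 lower (0.211%). Lrg1 continued upward, at 522, 646, 515 and 563 in the saline (0 h) kidneys, 492, 648, 342 and 567 at 24 h, 2047, 2659.6, 1702 and 2078 at 48 h and 4886, 7379.5, 8251 and 9128 at 72 h (72 h over 48 h 1.78 ± 0.33, adjusted p = 0.00547). Lcn2 was at 9859.9, 19418, 15061 and 19387 at 72 h against 5178, 3731, 1772 and 3252 at 48 h and was not called (2.24 ± 0.68, adjusted p = 0.134). Slc5a10, a sugar carrier of proximal tubule, was higher at 72 h (1.27 ± 0.19, adjusted p = 0.00091), as were Atg7 (0.77 ± 0.11, adjusted p = 0.00091), Atxn7l2 (0.74 ± 0.11, adjusted p = 0.00091) and Ikzf4 (0.79 ± 0.13, adjusted p = 0.00218, with 1 saline value missing). Ascl3, a transcription factor gene, was at 106.8, 100.3, 127 and 127 in the saline (0 h) kidneys, 332, 395, 331 and 396 at 24 h, 215, 195, 181 and 185 at 48 h and 118, 112, 119 and 102 at 72 h, so its 48 h level lay between its highest at 24 h and a saline-like 72 h level. Rdh5, a retinol dehydrogenase, was likewise lower at 72 h (-0.94 ± 0.14, adjusted p = 0.00091). Without 72 h replicate 3, 62 genes were called, without 72 h replicate 4, 65, without 48 h replicate 1, 82, without 72 h replicate 2, 119, and without 48 h replicate 2, 120. Comparisons with 24 h and with 72 h use the same 48 h arrays.

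**Figure D4:**
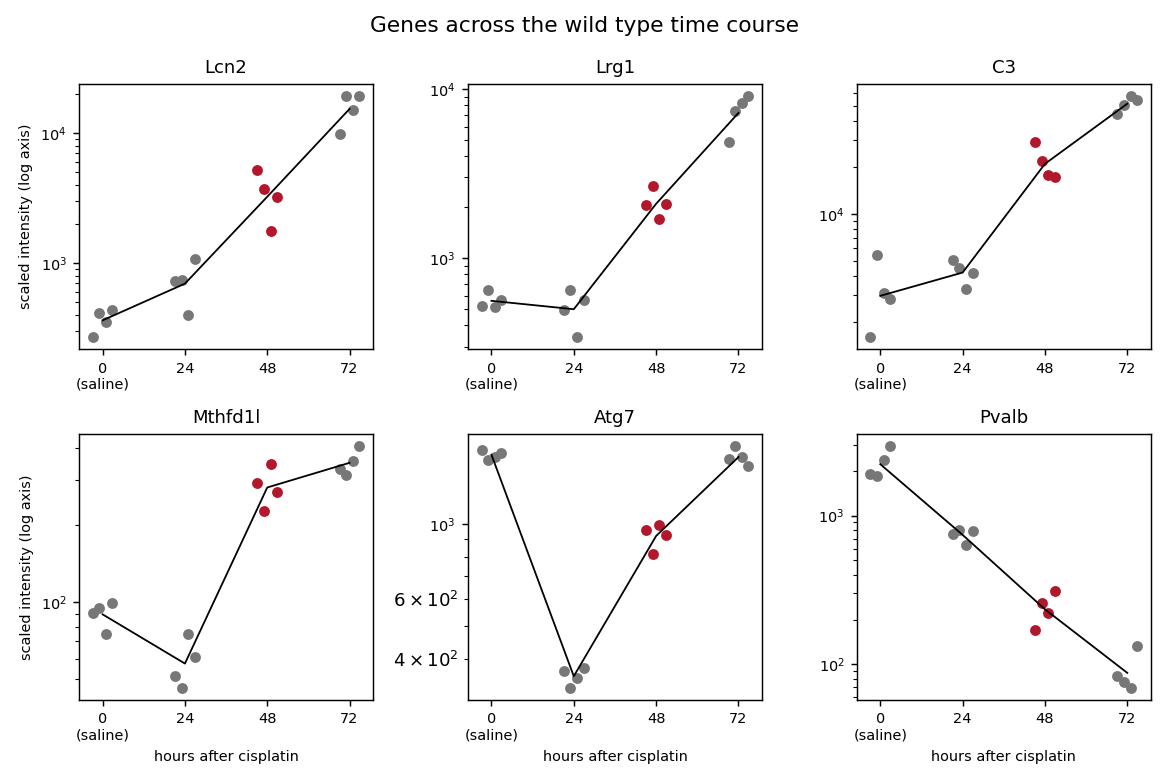
Scaled intensity (log axis) of 6 genes in the wild type kidneys at 0 (saline), 24, 48 and 72 h, 1 point per array with 48 h in red and a line through the geometric means. Every 72 h kidney lay above every 48 h kidney for Lcn2, Lrg1 and C3, of which only Lrg1 was called between these times. The share of all genes without overlap between these times was not computed. Atg7 was lowest at 24 h, and Pvalb was at its lowest at 72 h.

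Whether miR-155 alters the 48 h response was asked by the difference between genotypes, miR-155-/- minus wild type, in 48 h against saline. By limma 0 of 23749 genes were called (0.0%), 1703 had an unadjusted p under 0.05 (7.17%), and the smallest adjusted p was 0.119. Replicate 3 of the miR-155-/- 48 h kidneys stood apart from its group, and without it 0 genes were called as well. Leaving out wild type saline replicate 1 gave 8 genes, miR-155-/- 48 h replicate 2 gave 2 and wild type 48 h replicate 1 gave 1, and weighting arrays by their quality gave 104. Within miR-155-/- kidneys 43.8% of genes were called at 48 h against their saline, 22.7% higher and 21.1% lower. For Cdkn1a the 48 h difference from saline was 5.51 in miR-155-/- kidneys and 4.61 in wild type, for Havcr1 5.51 and 5.32, for Lcn2 4.83 and 3.16, and for Slc34a1 -1.33 and -1.58. A difference between genotypes that misses the threshold does not show that they responded alike.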

How the data were processed

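Each array measured the RNA of 1 mouse kidney on 1-colour arrays. Intensity values were made with Feature Extraction 10.7.3.1, protocol GE1_107_Sep09, per the file headers: processed signals, background-subtracted and not scaled between arrays. The authors' deposited value table holds linear intensity too, the processed signal times 1 factor per array, with 75th percentiles of 999.3 to 1000.

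Computed here were log2 of the processed signal minus the array's 75th percentile (1531 to 2647), over 43020 spots that were not controls, without flagged spots. Spots of a probe were averaged. The brightest probe stood for each gene among those that every array of some group found well above background and that at least 3 arrays of each group measured, which left 23749 genes and transcripts. Of 39429 probes 27234 had a symbol through accessions. No spot was saturated, and 68.8% to 82.2% of spots per array were well above background. Groups came from the labels, which say that RNA came from independent animals. With 4 arrays per group, their number limits the precision. limma 3.58.1 in R 4.3.3 fitted 8 group means over 32 arrays with a variance trend (24 residual degrees of freedom), two-sided, with Benjamini-Hochberg adjustment over all genes tested, and was tested on simulated data. A bound ("at least") was given where a probe was not well above background on any array of a group: it sets the brighter group's mean against the lowest signal well above background.

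Genes named were preset members of each list, the 10 largest rises and 10 largest falls without overlap, up to 4 called members per list with the smallest adjusted p, and 8 genes per other comparison, and some of these are not reported here. The members and gene lists were chosen with earlier results of these data known. Alternatives were the background, normalization, filter, probe rule, variance trend, array weights, blocks for slide, scan day or replicate number, the compared groups alone, the authors' table and each array left out.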

Additional observations from a re-analysis of the deposited data

Results flagged for a closer look

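In 23 cases 1 of the 4 kidneys of a group lay far from the other 3, by a gap above Dixon's 95% critical value. This was looked for in 402 groups of gene values and 80 of list means, and chance alone marks about 1 in 20. Among list means, given on the log2 scale from the saline mean, 48 h replicate 4 was low for adipocyte and adrenal markers (0.22) and 48 h replicate 3 low for neutrophil markers (-1.05). Saline replicate 2 was high for acute phase genes (0.61) and low for nephron transcription factors (-0.11), and saline replicate 4 was high for the EGF receptor family (0.14).

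The single genes are given as scaled intensity. In 48 h replicate 1, Ccna2 (73.8), Hbb-bs (8.65) and Xbp1 (23700) were high and Nr1d1 (191) low. In 48 h replicate 2, Acly (10900) was low and Idi1 (3320) high. In 48 h replicate 4, Trpm6 (248) was low. In saline replicate 1, Cox4i1 (93800) and Cyp4b1 (116000) were high. In saline replicate 2, Klf15 (3440), Mlkl (129) and Scnn1g (159) were high. In saline replicate 3, Gsta2 (17500) and Hmox1 (2340) were high and Ifit1 (101) and Mcm6 (4480) low. In saline replicate 4, Polk (246) and Tac1 (8.02) were high.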

How the results depend on the processing

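The number of genes called in 48 h kidneys against saline was 5655. Background correction by normexp on the median signals, an alternative chosen after seeing the data, gave 2972, and array weights gave 11288. For 48 h against 24 h (3112) these gave 1519 and 7311. For 72 h against 48 h (207), slide as a random block gave 378, the compared groups alone 366 and array weights 1514. For the difference between genotypes (0), slide as a fixed block gave 6, slide as a random block 13, quantile normalization 4 and array weights 104. With 1 array left out, the counts ranged from 4160 to 5684 for 48 h against saline, 1763 to 3092 for 48 h against 24 h, 62 to 256 for 72 h against 48 h, and 0 to 8 for the difference between genotypes. Of the named genes called at 48 h against saline, 0 changed sign in any alternative that tested them. List medians near 0 did: DNA repair genes from 0.12 to -0.02 with normexp, fatty acid oxidation genes from 0.09 to -0.01 without saline replicate 1, matrix genes from 0.14 to -0.04 without 48 h replicate 1, podocyte genes from 0.09 to -0.03 with slide as a fixed block and -0.06 without saline replicate 1, and renal hormone genes from 0.02 to between -0.12 and -0.03 without saline replicate 1 or 3 or 48 h replicate 1 or 4. With the replicate number as a block the counts were 5649, 3072, 258 and 0, and 3 of 220 genes lost their call, Tnf and Emcn among them. Same-numbered 48 h and saline kidneys had deviations that correlated at 0.164, 0.524, 0.380 and -0.219. Replicates 1 to 3 at 48 h correlated best with the saline kidney of their own number, and replicate 4 did not. The replicate 2 arrays of the groups shared slide 4. The numbers were not taken as pairs because the labels say that RNA came from independent animals. With normexp the median of all genes was -0.11 in 48 h against saline, in place of 0.000478. It was -0.26 in 48 h against 24 h, in place of -0.06, and 0.30 in the difference between genotypes, in place of -0.02. The naming rule chose 220 genes that were called at 48 h against saline. Of these, 154 kept their call and direction in every one of the 22 alternatives that tested them. With signal well above background required on all compared arrays, 196 of the 220 were tested, and these kept their call. With normexp 170 of 220 kept it, and Atp5a1, Ccna2, Cpt1a, Gclc, Pdia6, Pola1 and Uqcrc2 were among those that did not. In all 8 alternatives that left out an array, 189 did. Normexp on the mean signals was not run because the files used here hold median signals. The causes were not tested. Genes near background have the least certain folds.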
